A study of Mus musculus with 6 samples.

Results

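The transcription factor p53, encoded by Trp53, and 9 of its direct target genes were followed in mouse oesophageal squamous cell carcinomas. The 10 genes were taken by symbol from the deposited counts, which hold 41253 gene symbols, and all 10 had reads in every library and passed the filter on low counts. The tumours came from C57BL/6 mice whose drinking water held 4NQO, a carcinogen that forms bulky DNA adducts, at a labelled 100 mg/mL for 16 weeks, starting at week 6 of life. Mice were killed 12 weeks after treatment ended, or earlier after marked weight loss; the design text gives an age of 34 weeks and a label tag gives week 6. There were 2 groups of 3 libraries, labelled WT (wild type) and Ptpro-KO (Ptpro-/-; Ptpro encodes a receptor-type tyrosine phosphatase), both exposed to 4NQO; tissue not exposed to 4NQO was not analysed here. The labels do not say which exons the Ptpro-/- allele lacks. The design text gives 3 per group, and each library was treated as coming from its own mouse; if that is wrong, p-values measure only technical spread.

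The labels of genotype were checked first. Ptpro had 174, 9 and 67 reads under the label WT and 1094, 1824 and 1921 under Ptpro-KO, so the targeted gene went against its label. Every direction below is therefore between libraries as labelled. Libraries held 25745240 to 39827467 reads. The basal squamous keratin genes Krt5 and Krt14 were abundant in all 6, with 8 basal squamous markers summing to 22660 to 30510 CPM (reads per fixed library total after TMM scaling) under WT and 9729 to 12870 under Ptpro-KO. For 7 simple epithelium markers the sums were 38.1 to 87.1 and 1081 to 2240, for 7 fibroblast markers 361 to 1891 and 2972 to 4668, and for 7 macrophage markers 75.7 to 318 and 549 to 1053. Ptpro-KO replicate 3 stood apart by 14850 CPM over 5 stomach epithelium markers (0.178 to 20.8 in the other 5 libraries), and Ptpro-KO replicate 2 by 781 over 4 thyroid markers (1.01 to 4.43 elsewhere); for each called gene named below, the effect of leaving these libraries out is given. The part of these other cells in the results below was not tested, and in such bulk tissue fewer cells of a type and less RNA per cell cannot be told apart.

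p53 is held low in resting cells because MDM2, itself a p53 target, marks it for degradation. DNA damage relieves that control, mostly at the level of the protein, and p53 then binds response elements near genes that stop the cell cycle, start apoptosis, adjust metabolism or feed back on p53. Levels of Trp53 RNA therefore do not measure p53 activity, and carcinogen-induced squamous tumours often carry Trp53 mutations, which these counts cannot show.

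The response element is a pair of adjoining decamers, each with a fixed C and G at its core. Promoter windows of 250 bases before to 50 after each RefSeq start site (GRCm38.p6, the same assembly as mm10) were searched for it without a spacer, both strands being covered because the consensus is its own reverse complement. Both cores had to be intact and at most 3 of the 20 bases could differ from the consensus. Of 32817 windows, 1.38% held such a match, and 0.067% held a match with at most 1 difference. Of the 10 genes 9 had 12 windows in the table, and 4 windows matched. They are shown because these genes are described below; capitals mark the matching 20 bases, and flanking bases are in lower case.

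Cdkn1a: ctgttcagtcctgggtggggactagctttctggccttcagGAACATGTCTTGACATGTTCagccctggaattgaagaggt
Ccng1: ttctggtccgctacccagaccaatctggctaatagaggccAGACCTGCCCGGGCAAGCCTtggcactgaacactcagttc
Bbc3: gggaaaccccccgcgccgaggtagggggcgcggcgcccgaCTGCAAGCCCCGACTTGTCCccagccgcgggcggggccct
Trp53: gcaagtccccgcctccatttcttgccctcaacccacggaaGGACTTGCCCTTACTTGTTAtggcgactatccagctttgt

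The Cdkn1a stretch (chr17:29090888-29090967, plus strand) and the Ccng1 stretch (chr11:40755442-40755521, minus strand) each held a match that differed from the consensus at 1 base. Those of Bbc3 (chr7:16309446-16309525, plus strand) and Trp53 (chr11:69580244-69580323, plus strand) differed at 3 bases. The matches ended 32 bases before the RefSeq start for Cdkn1a, 176 for Ccng1, 78 for Bbc3 and 56 for Trp53. The Cdkn1a match lay before the upstream start of the gene, and 2822 bases before the start of transcript Cdkn1a-201. That transcript held 10659 of the Cdkn1a reads, against 7 for Cdkn1a-202, which begins at the upstream start. For the windows without a match, only the absence of these letters is shown, and a match is not shown to be a bound site.

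Between the labels, the clearest difference in the group was a lower level of Cdkn1a RNA under the label Ptpro-KO. Cdkn1a encodes p21, the inhibitor of cyclin-dependent kinases through which p53 arrests the cell cycle. It fell by 0.69 on the log2 scale (SE 0.12), a level 38.03% lower, and was the gene of the 10 that passed edgeR's quasi-likelihood test over all genes (adjusted p = 0.0423). Of the 10 genes, 1 was thus called lower, against 2.29% of the 17663 genes tested, and 0 were called higher, against 1.81%; 3 of the 10 had an unadjusted p under 0.05, against 25.0% of all genes. DESeq2 called 3 of the 10 lower and 0 higher, against 8.37% and 9.52% of all genes. With 10 genes, 1 call is too few to set them apart from the rest. Fold changes were negative for 8 of the 10, against 46.7% of all genes, and Zmat3 turned positive when libraries were scaled by their totals. The median log2 fold change was -0.38, beside 0.03 over all genes tested.

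**Figure D1:**
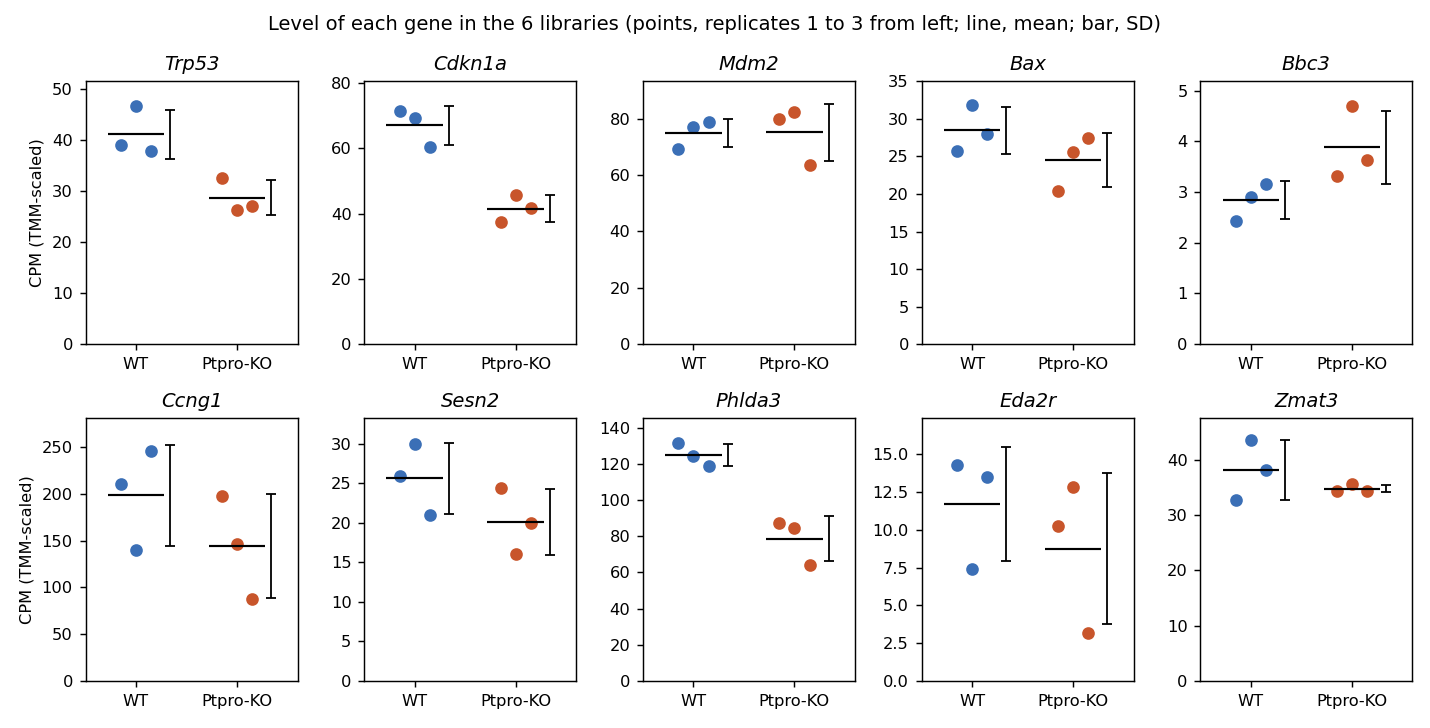
Level of each of the 10 genes in CPM (linear axes from 0) in the 3 libraries of each label, with the mean as a line and the SD as a bar. Cdkn1a, Phlda3 and Trp53 show all 3 libraries labelled Ptpro-KO below all 3 labelled WT, Bbc3 shows the reverse, and the other 6 overlap.

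Trp53 itself (chromosome 11, 69580359 to 69591873, plus strand, ENSMUSG00000059552) stood at 39.0, 46.7 and 37.8 CPM under WT and at 32.6, 26.2 and 27.15 under Ptpro-KO. All 3 of the latter lay below all 3 of the former, with means of 41.2 ± 4.80 and 28.7 ± 3.43 (SD, n = 3 each). The log2 fold change was -0.52 (SE 0.14), with an edgeR adjusted p of 0.0927, which misses the threshold of 0.05; DESeq2 gave 0.0213. Groups that did not overlap downward were found for 3 of the 10 genes and for 15.7% of all genes tested, and upward for 1 of the 10 and for 16.8%.

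Most Trp53 reads were listed under the protein-coding transcript Trp53-201. It took 89.6%, 92.2% and 87.96% of them under WT and 88.45%, 80.9% and 87.3% under Ptpro-KO. The non-coding transcript ENSMUST00000147512, of 3275 bases, took most of the rest, at 9.37%, 7.17% and 11.01% against 10.6%, 18.25% and 11.75%. Ptpro-KO replicate 2 stood above the other 5 libraries in that share, while the remaining libraries overlapped between labels. The sources used here do not state how a read that fits more than a single isoform was assigned, so these shares describe the deposited assignment.

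Cdkn1a (chromosome 17, 29090976 to 29100727, plus strand, ENSMUSG00000023067) had 71.4, 69.2 and 60.3 CPM under WT and 37.3, 45.6 and 41.6 under Ptpro-KO. The lowest library labelled WT was above the highest labelled Ptpro-KO, and the means were 67.0 ± 5.86 and 41.5 ± 4.14 (SD, n = 3 each). The call did not survive leaving out any 1 library: the edgeR adjusted p was 0.0943, 0.132 and 0.138 without WT replicates 1, 2 and 3, and 0.102, 0.0689 and 0.0769 without Ptpro-KO replicates 1, 2 and 3, while the log2 fold change stayed between -0.78 and -0.65. The call also ended with scaling by library totals (edgeR adjusted p = 0.075), without the filter on low counts (0.0579) and with a term for sex (0.0808). Basal squamous markers were lower in the same libraries, and 10 proliferation markers summed to 1019 to 1281 CPM under WT and 640 to 1147 under Ptpro-KO; their part in the Cdkn1a value was not tested. An unstranded count could also hold reads from AC167363.2, annotated in GENCODE M21 on the opposite strand over part of a Cdkn1a exon and not analysed here.

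Phlda3 encodes a pleckstrin-homology protein that competes with the kinase AKT for membrane lipids. This gene (chromosome 1, 135766119 to 135769136, plus strand, ENSMUSG00000041801) stood at 131.5, 124.5 and 119.0 CPM under WT and 87.15, 84.9 and 64.4 under Ptpro-KO. The labels did not overlap, and Ptpro-KO replicate 3 was the lowest library. Its log2 fold change of -0.67 (SE 0.14) was close to that of Cdkn1a, with an edgeR adjusted p of 0.0602, and limma on log2(FPKM + 1) and DESeq2 gave 0.0438 and 0.0014.

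Neither feedback gene, Mdm2 or Ccng1, passed the test. Mdm2, the ubiquitin ligase that limits p53 (chromosome 10, 117688875 to 117710758, minus strand, ENSMUSG00000020184), measured 69.4, 76.9 and 78.9 CPM under WT and 79.9, 82.2 and 63.7 under Ptpro-KO. The labels overlapped throughout, with means of 75.0 ± 5.01 and 75.3 ± 10.1 (SD, n = 3 each). The fitted ratio was 1.003, and its 95% confidence interval ran from 0.805 to 1.25, so a change of Mdm2 as large as the fitted one of Cdkn1a lay outside it. The edgeR adjusted p for Mdm2 was 0.988. Transcript Mdm2-201 took 87.0% to 91.0% of Mdm2 reads in every library.

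**Figure D2:**
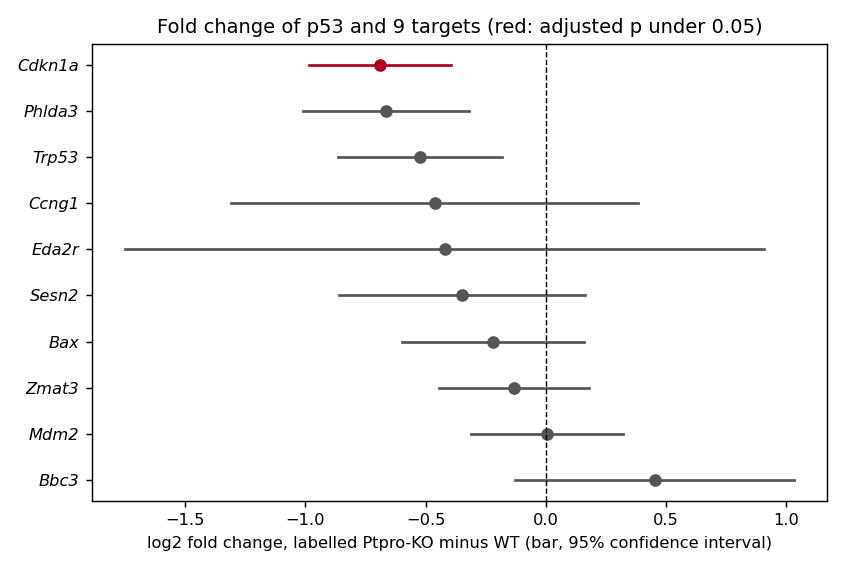
Log2 fold change of each gene, labelled Ptpro-KO minus WT, with its 95% confidence interval from the edgeR fit, not adjusted for the number of genes. Intervals for Cdkn1a, Phlda3 and Trp53 lie below 0, that of Mdm2 is centred near 0, and those of Ccng1 and Eda2r are the widest.

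Ratios within a library do not depend on how libraries are scaled, and 6 of them were chosen after the values had been seen. Mdm2 had 0.972, 1.11 and 1.31 reads per Cdkn1a read under WT and 2.14, 1.80 and 1.53 under Ptpro-KO, which did not overlap. The difference was 0.69 on the log2 scale, with a two-sided exact permutation p of 0.1, the smallest that 3 against 3 can give, and 0.15 after Benjamini-Hochberg adjustment over the 6 ratios. The reads of Cdkn1a per Trp53 read overlapped, at 1.83, 1.48 and 1.595 against 1.15, 1.74 and 1.53 (exact permutation p = 0.5). Phlda3 reads per Trp53 read overlapped as well, with means of 3.06 ± 0.359 and 2.76 ± 0.439 (SD, n = 3 each; exact permutation p = 0.5), whereas Mdm2 reads per Trp53 read had means of 1.84 ± 0.224 and 2.64 ± 0.429 and did not overlap (exact permutation p = 0.1).

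**Figure D3:**
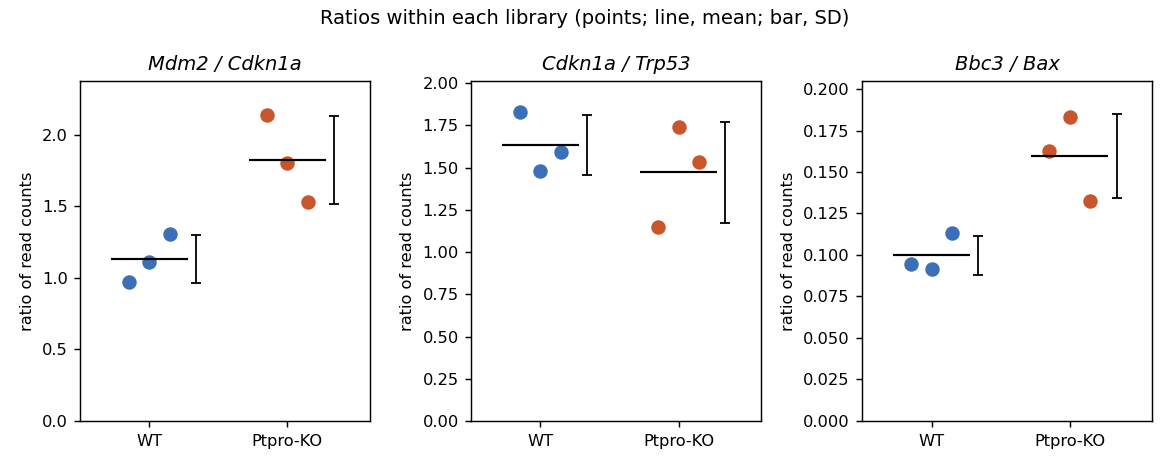
Ratio of read counts of gene pairs within each library (linear axes from 0), with mean and SD. The Mdm2 to Cdkn1a and the Bbc3 to Bax ratios are higher in all 3 libraries labelled Ptpro-KO than in any labelled WT, and the Cdkn1a to Trp53 ratio overlaps.

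Ccng1 encodes cyclin G1, which acts with a phosphatase on MDM2 in the same feedback loop. It was among the most abundant of the 10 genes and varied widely within each label (chromosome 11, 40748552 to 40755311, minus strand, ENSMUSG00000020326). Values were 210, 140 and 246 CPM under WT and 198, 146 and 87.7 under Ptpro-KO, so the lowest library of each label was WT replicate 2 and Ptpro-KO replicate 3. The log2 fold change was -0.46 (SE 0.35), with an edgeR adjusted p of 0.456, -0.21 without Ptpro-KO replicate 3 and -0.67 without WT replicate 2.

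Eda2r, a receptor of the tumour necrosis factor receptor family for ectodysplasin A2, showed the same low libraries (chromosome X, 97333840 to 97377216, minus strand, ENSMUSG00000034457). It stood at 14.3, 7.37 and 13.5 CPM under WT and at 10.2, 12.9 and 3.16 under Ptpro-KO. Its log2 fold change of -0.42 (SE 0.54; edgeR adjusted p = 0.677) became -0.02 without Ptpro-KO replicate 3 and -0.67 without WT replicate 2. Eda2r is X-linked, and Xist reads put 1 female among the mice labelled WT and 2 among those labelled Ptpro-KO; with a term for sex the log2 fold change of Eda2r was -0.40.

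The libraries low in Ccng1 and Eda2r were also those nearly without striated muscle RNA. Summed over 6 striated muscle markers, WT replicate 2 had 53.4 CPM and Ptpro-KO replicate 3 had 70.0, against 4939 to 11450 in the other 4 libraries. All 6 of these markers, such as Acta1 and Ckm, had reads in every library. Muscle was not alone in this pattern. WT replicate 2 and Ptpro-KO replicate 3 were also the lowest of their label for fibroblast markers (361 and 2972 CPM) and macrophage markers (75.7 and 549). The same held for suprabasal squamous markers (11770 and 3740). For basal squamous, simple epithelium, endothelium and proliferation markers they were not both the lowest. The part of muscle or of these other cells in the Ccng1 and Eda2r values was not tested. For Cdkn1a, Phlda3 and Trp53, WT replicate 2 lay within or above the other libraries labelled WT, while Ptpro-KO replicate 3 was the lowest library for Phlda3 but not for Cdkn1a or Trp53.

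**Figure D4:**
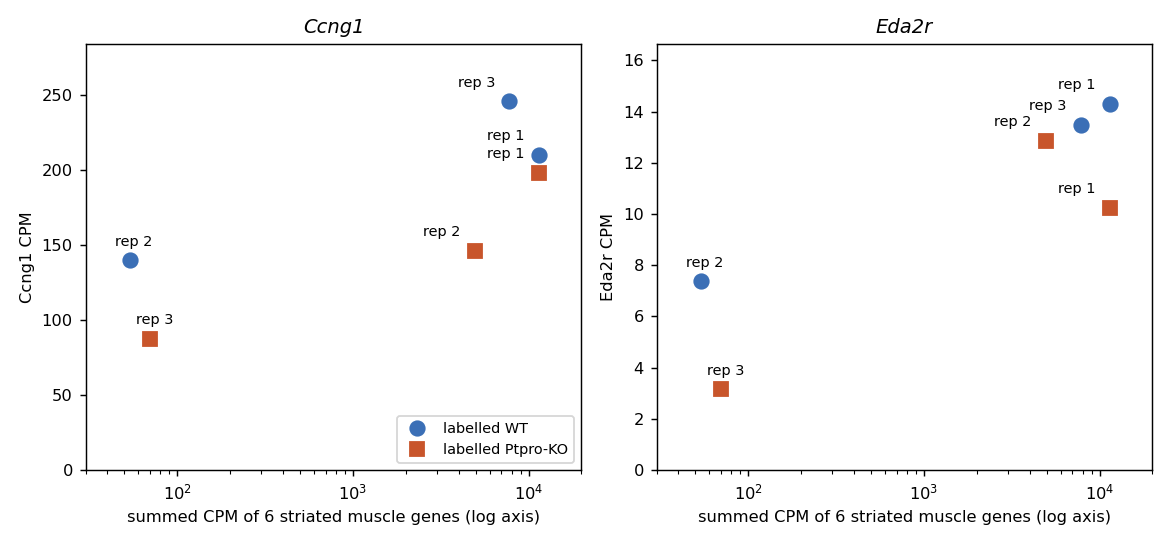
CPM of Ccng1 (left) and Eda2r (right), on linear axes from 0, against the summed CPM of 6 striated muscle genes on a log axis; circles are libraries labelled WT and squares those labelled Ptpro-KO, with replicate numbers. WT replicate 2 and Ptpro-KO replicate 3 sit at 53.4 and 70.0 CPM of muscle genes and are the lowest library of their label for both genes.

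The apoptosis genes Bax and Bbc3 lay on opposite sides of 0, and neither passed the test. Bax encodes the protein that forms pores in the mitochondrial outer membrane (chromosome 7, 45461697 to 45466898, minus strand, ENSMUSG00000003873). It stood at 25.7, 31.9 and 27.98 CPM under WT and 20.45, 25.6 and 27.4 under Ptpro-KO, with overlap (log2 fold change -0.22, SE 0.155, edgeR adjusted p = 0.431). Gm45808, annotated on the same strand, shares exon bases with Bax in GENCODE M21 and was not analysed here.

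Bbc3 encodes PUMA, a BH3-only protein that neutralises the guardians of the BCL2 family. This gene (chromosome 7, 16308393 to 16318205, plus strand, ENSMUSG00000002083) had the lowest mean CPM of the 10 under both labels, with 84, 73 and 89 reads under WT and 120, 200 and 138 under Ptpro-KO. That made 2.44, 2.91 and 3.17 against 3.32, 4.69 and 3.64 CPM, and the labels did not overlap. The log2 fold change of 0.45 (SE 0.24) had an edgeR adjusted p of 0.299. Per Bax read there were 0.0998 ± 0.0118 Bbc3 reads under WT and 0.159 ± 0.0254 under Ptpro-KO (SD, n = 3 each), without overlap and with the smallest exact permutation p this design allows, 0.1. This ratio is among the 6 chosen after the values had been seen, and Benjamini-Hochberg adjustment over them gave 0.15.

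Sesn2 and Zmat3 differed little against their spread. Sesn2 encodes sestrin 2, a stress protein that restrains the growth kinase complex mTORC1 (chromosome 4, 132492032 to 132510501, minus strand, ENSMUSG00000028893). Its values were 25.9, 30.01 and 21.04 CPM under WT and 24.4, 16.05 and 20.03 under Ptpro-KO (log2 fold change -0.35, SE 0.21, edgeR adjusted p = 0.361). Zmat3, an RNA-binding zinc finger protein that regulates splicing (chromosome 3, 32334792 to 32366014, minus strand, ENSMUSG00000027663), measured 32.8, 43.5 and 38.1 against 34.3, 35.6 and 34.4 CPM. Zmat3 was the least variable of the 10 for its level among the libraries labelled Ptpro-KO, with an SD of 0.706 CPM around a mean of 34.8, and its fitted ratio was 0.912 (95% confidence interval 0.736 to 1.13).

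To compare levels between genes, deposited RPKM, which accounts for transcript length, was summed over transcripts of a gene. Phlda3 was highest under WT at 82.9 ± 2.91 RPKM, followed by Ccng1 at 53.6 ± 14.1, Cdkn1a at 33.7 ± 2.83, Bax at 31.2 ± 4.34, Mdm2 at 26.2 ± 3.26 and Trp53 at 21.5 ± 3.23 (SD, n = 3 each). Sesn2 at 7.01 ± 1.33, Zmat3 at 5.09 ± 0.736, Eda2r at 2.73 ± 0.873 and Bbc3 at 1.51 ± 0.241 RPKM completed the order. Among neighbours in this order the ranges of Cdkn1a and Bax overlapped, as did those of Bax and Mdm2, Mdm2 and Trp53, and Eda2r and Bbc3. Within each library labelled WT, however, Bax stood above Mdm2, Mdm2 above Trp53, and Eda2r above Bbc3. Cdkn1a stood above Bax in WT replicates 1 and 2 but not in WT replicate 3 (30.5 against 30.8 RPKM). Under Ptpro-KO, Cdkn1a at 23.1 ± 2.97 RPKM stood below the means of Bax (29.6 ± 5.02) and Mdm2 (29.6 ± 3.604), and Bbc3 (2.29 ± 0.442) was level with Eda2r (2.23 ± 1.29).

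The wider p53 pathway was read from lists by role. Of 53 other p53 target genes, all tested, 2 fell (3.77%, against 2.29% of all genes) and 0 rose by edgeR. Of their fold changes 31 were negative (58.5%, against 46.7% of all genes) and 22 positive, with a median log2 of -0.22. At an unadjusted p under 0.05 there were 15 of the 53, and DESeq2 called 4 higher and 5 lower; these counts are near the 25.0%, 9.52% and 8.37% of all genes. Both genes that fell were abundant in every library. Sfn encodes 14-3-3 sigma, which holds cyclin-dependent kinase complexes in the cytoplasm, and fell from 1309, 1414 and 1360 CPM to 478, 385 and 607 (log2 fold change -1.47, SE 0.19, edgeR adjusted p = 0.0253). Perp, a membrane protein of desmosomes and an apoptosis effector, fell from 1952, 2314 and 2521 CPM to 976, 1133 and 832 (log2 fold change -1.21, SE 0.18, edgeR adjusted p = 0.0323). The basal squamous markers, given above, were lower in the same libraries, and 3 of the 8 were called lower. The 10 suprabasal squamous markers summed to 11770 to 28310 CPM under WT and 3740 to 11140 under Ptpro-KO, without overlap, and 4 of them were called lower. Most of that sum came from Krt4 and Krt13, and the list was not uniform. The labels overlapped for 5 of the 10, Ivl had a positive log2 fold change (1.04) and Krt1 lay near 0 (-0.01). For both marker lists, their part in the Sfn and Perp values was not tested. The Perp call ended when any 1 library was left out (edgeR adjusted p 0.0525 to 0.148), and the Sfn call held only without Ptpro-KO replicate 3, ending without each of the other 5 (0.0573 to 0.130). Both also missed the threshold with a term for sex, at 0.0503 for Perp and 0.0526 for Sfn.

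Role by role, few genes passed, beside 2.29% of all genes called lower and 1.81% called higher by edgeR. An unadjusted edgeR p under 0.05 was found for 4 of 9 arrest, 3 of 10 apoptosis and 1 of 7 feedback and modifier genes (25.0% of all genes). Among 9 arrest genes Sfn fell, while the growth arrest gene Gadd45a (0.74) and Plk2 (0.37) had the largest positive and Btg2 (-0.84) the next largest negative log2 fold change among genes with a mean log2 CPM of at least 1, a limit kept for the genes named from each list. Perp was the call among 10 apoptosis genes. In that group the BH3-only gene Bid (0.81) and the death receptor gene Fas (0.67) stood at the positive end and the largest negative value after Perp was that of Ei24 (-0.34). None of 7 feedback and modifier genes passed, with Ccng2, a cyclin G relative, at -0.65 and Trp53inp1 at -0.67, Cdip1 at 0.36 and Rchy1 at 0.09.

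Of 17 genes of repair, redox and metabolism 0 were called by edgeR. An unadjusted p under 0.05 was found for 3 (25.0% of all genes), and 13 had negative fold changes (46.7% of all genes). The glutathione peroxidase gene Gpx1 stood at 342.5, 489 and 359 CPM against 219.9, 220.4 and 223, with a log2 fold change of -0.84 and an edgeR adjusted p of 0.0506, just outside the threshold. Sesn1, the close relative of Sesn2, had -0.95 (adjusted p = 0.0687 by edgeR), and its labels did not overlap. DESeq2 called Gpx1 (adjusted p = 0.000121) and Sesn1 (0.0016) lower, as it did 8.37% of all genes. With limma-voom the adjusted p was 0.0481 for Gpx1 and 0.0781 for Sesn1. On the positive side were Prkab1 at 0.70 and Rrm2b at 0.25. The 10 secreted and membrane targets had a median of 0.61, 0 calls by edgeR and 4 at an unadjusted p under 0.05 (25.0% of all genes). Sulf2 (1.83) and Thbs1 (1.58) were highest, and Cd80 stood at -0.23. The fibroblast and macrophage marker sums given at the start were higher in the same libraries, and their part in these values was not tested.

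**Figure D5:**
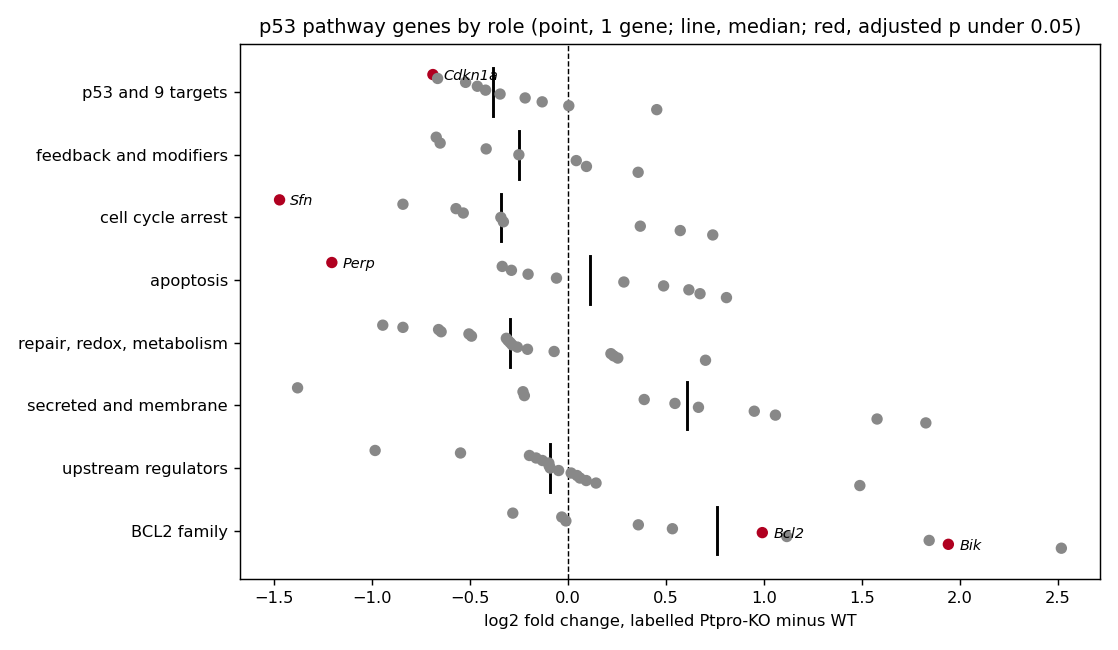
Log2 fold change, labelled Ptpro-KO minus WT, of each tested gene by role; a point is 1 gene, the line the median and red an edgeR adjusted p under 0.05. Cdkn1a, Sfn and Perp are the red points below 0 and Bcl2 and Bik those above 0.

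Upstream of p53, 0 of 15 regulators passed edgeR's test in either direction, against 1.81% of all genes higher and 2.29% lower. At an unadjusted p under 0.05 there were 2 of the 15, against 25.0% of all genes. DESeq2 called 2 lower, Chek2 (adjusted p = 0.0306) and Rpl11 (0.0029), against 8.37%. The median log2 fold change was -0.09. The DNA damage kinase gene Chek2 stood at 18.9, 29.9 and 24.8 CPM under WT and 9.94, 9.13 and 18.1 under Ptpro-KO, without overlap (log2 fold change -0.99, edgeR adjusted p = 0.136). Rpl11, whose protein can bind MDM2, had -0.55 and the acetyltransferase gene Kat5 0.14. Cdkn2a, which encodes the MDM2 inhibitor ARF and the kinase inhibitor p16 from a shared locus that gene counts cannot separate, varied most. It stood at 4.18, 13.8 and 4.31 CPM under WT and 32.3, 25.8 and 4.43 under Ptpro-KO, where replicate 3 was level with the lower libraries labelled WT (log2 fold change 1.49, SE 0.83, edgeR adjusted p = 0.327). Leaving out 1 library moved the Cdkn2a value between 0.99 (without Ptpro-KO replicate 1) and 2.29 (without WT replicate 2).

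Neither relative of Trp53 passed edgeR's test. Trp63, which specifies stratified epithelium and is also among the basal squamous markers, stood at 410, 552 and 541 CPM against 238, 184 and 390, without overlap (log2 fold change -0.89, edgeR adjusted p = 0.144). Trp73 overlapped, at 5.36, 14.2 and 9.47 against 7.92, 9.60 and 3.87 CPM (log2 fold change -0.44, SE 0.47). DESeq2 gave adjusted p of 0.0308 for Trp63 and 0.624 for Trp73, and called 8.37% of all genes lower.

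A list of 10 other genes of the BCL2 family was read as well. Of these genes 2 rose, against 1.81% of all genes, and 0 fell, against 2.29%. The labels did not overlap upward for 6, against 16.8% of all genes, and downward for 1, against 15.7%. The median log2 fold change was 0.76, beside 0.03 over all genes. The list was chosen with earlier results of these data known, so these counts do not test whether it differs from the rest. Bcl2, the guardian that blocks BAX, rose from 9.98, 13.3 and 13.2 CPM to 19.9, 26.7 and 25.9 (log2 fold change 0.99, SE 0.19, edgeR adjusted p = 0.0486). Bik, a BH3-only gene, rose on low counts, from 22, 11 and 21 reads to 63, 113 and 101 (log2 fold change 1.94, SE 0.32, edgeR adjusted p = 0.0384). Both calls ended when any 1 of the 6 libraries was left out, with edgeR adjusted p from 0.0824 to 0.172 for Bcl2 and from 0.0718 to 0.148 for Bik. Over all 16 alternatives Bcl2 lost its call in 13, among them limma-voom (adjusted p = 0.0524), upper-quartile factors (0.0516), no filter on low counts (0.0592) and limma on log2(FPKM + 1), at 0.065. Bik lost its call in 9, among them no filter (0.0514) and a term for sex (0.0719), and its log2 fold change was 1.22 on log2(FPKM + 1). Macrophage, fibroblast and simple epithelium markers were higher in the same libraries, and their part in the Bcl2 and Bik values was not tested. Per Bax read there were 0.426 ± 0.0426 Bcl2 reads under WT and 0.987 ± 0.0508 under Ptpro-KO (SD, n = 3 each, exact permutation p = 0.1). This ratio too is among the 6 chosen after the values had been seen, with 0.15 after Benjamini-Hochberg adjustment. The largest positive values that missed the threshold were those of Bcl2a1b (2.52, edgeR adjusted p = 0.0653), which has near-identical copies among which reads may be divided and which stood at 3.17 without WT replicate 1, and the BH3-only gene Bmf (1.84, adjusted p = 0.059 by edgeR). DESeq2 called Bcl2a1b (adjusted p = 7.995e-05) and Bmf (0.000136) higher, as it did 9.52% of all genes. Bad (-0.28) and Bak1 (-0.01) had the lowest values in the list among genes with a mean log2 CPM of at least 1.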

How the data were processed

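Members and gene lists were chosen with earlier results of these data known. Per the submitters' processing notes, the tool was Bowtie 0.12.2 and the build mm10. Judging by the deposited file names, reads of ribosomal RNA had been removed; the sources used here do not state the strand setting. The deposited files hold whole read counts per Ensembl transcript and the authors' RPKM, which was checked to equal the count divided by transcript length and by the library's summed counts. A deposited gene table holds FPKM, made by the authors with a tool the sources do not name; 2 of its columns matched no sample and were not used.

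Counts were summed by symbol (100249 transcripts); 0 reads lay on unnamed entries. Positions came from GENCODE M21. Genes passing filterByExpr (10 counts in 3 libraries, 15 in total) were TMM-scaled and tested with edgeR 4.0.16 (R 4.3.3) without covariates, with Benjamini-Hochberg adjustment over 17663 genes, threshold 0.05, and a common biological coefficient of variation of 0.40. The SE is the log2 fold change over the root of F. No library repeated another of its label (chi-square over its degrees of freedom, 66.9 to 307). Named genes were the 10, every called gene of the pathway lists, and the 2 largest changes per list and direction with mean log2 CPM of at least 1; a gene this rule names is not reported here. On simulated counts for this comparison (17435 genes), the test recovered 7 of 100 at a 2-fold change and 69 of 100 at 4-fold. Each simulated gene had the spread typical of its level rather than its own, and the changed genes were few and drawn from those with higher counts. These shares are therefore not the power for the genes named here. Alternatives used DESeq2 1.42.0 and limma 3.58.1.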

Additional observations from a re-analysis of the deposited data

How the results depend on the processing

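Alternatives covered DESeq2, limma-voom, 3 other scalings, no filter, leaving out each library, a replicate block, limma on log2(FPKM + 1) and log2(FPKM + 0.1), and a sex term chosen with results known. Over these 16 the log2 fold changes of Trp53, Cdkn1a, Phlda3, Bax, Bbc3, Ccng1, Sesn2 and Eda2r kept their sign. Cdkn1a ranged from -0.78 to -0.54 (adjusted p 2.14e-05 to 0.138) and lost its call in 10, Phlda3 gained one in 3 and Trp53 in 1. Mdm2 turned negative with DESeq2 and RLE factors (-0.004 each), limma-voom (-0.002), the replicate block (-0.003) and without WT replicate 1 (-0.056) or Ptpro-KO replicate 1 (-0.072) or 2 (-0.073); leaving out 1 library moved it between -0.073 and 0.11. Zmat3 turned positive (0.014) with library totals. Bak1 turned positive with library totals (0.137), and between -0.08 and 0.065 on leaving out 1 library, with 0.027 without WT replicate 2; Cd80 lay between -0.422 and 0.028. The cause was not tested.

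DESeq2 called 1682 genes higher and 1478 lower, against 320 and 405 by edgeR, with 3 of the 10 genes lower, 4 other p53 targets higher and 5 lower, and 2 upstream regulators lower. Library totals, which moved the median log2 fold change of all genes from 0.03 to 0.19, gave 630 higher and 294 lower and 0 of the 10 genes. Without a filter 28700 genes were tested and 0 of the 10 were called. Limma on FPKM called 2 of the 10 genes lower with either pseudocount. The sex term gave 64 higher and 122 lower, with 0 of the 10 genes and 0 other targets lower.

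Leaving out 1 library gave 0 to 253 genes higher and 0 to 243 lower, 0 of the 10 genes, and 0 to 1 other p53 targets lower. edgeR called 0 genes in 3 of these fits: leaving out WT replicate 2 (3369 genes at an unadjusted p under 0.05), WT replicate 3 (3078) or Ptpro-KO replicate 2 (4363).

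Replicate numbers are shared between labels, but the deviations of same-numbered libraries correlated at 0.539, 0.0803 and -0.243, over 0.1 for replicate 1 alone, so the numbers were not taken as pairs; with the replicate block 133 genes were higher and 104 lower, with 0 of the 10 genes and 0 other targets lower (adjusted p 0.0787 for Cdkn1a, 0.0571 for Sfn and 0.0663 for Perp). Of the 10 genes, Bbc3 had the fewest reads, 73 to 200 per library, and so the most counting error, except in Ptpro-KO replicate 3. There Eda2r had fewer, with 120 reads against 138.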

Other observations

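Over the 6 libraries and 14195 genes with mean log2 CPM of at least 1, the 3 genes whose log2 CPM followed that of Trp53 most closely were Nedd8 (Pearson r = 0.996), Mfhas1 (0.994) and Mast4 (0.994), given as a description of the top of a long ranking. Their log2 fold changes between the labels were -0.37, -0.47 and -0.76, and none passed the edgeR test over all genes (adjusted p = 0.101, 0.0835 and 0.0804).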
